A study of Mus musculus with 9 samples.

Results

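A set of 10 genes that hold mineral out of soft tissue, or that move phosphate and pyrophosphate around cells, were followed across all 9 arrays of the series. They are Mgp, Tnfrsf11b, Enpp1, Ank, Abcc6, Nt5e, Alpl, Phospho1, Slc20a1 and Slc20a2. Members were found by the gene name printed in the scanner files for non-control probes. The array of 55681 probes carried 14 probes for these 10 genes. Of these, 13 probes were kept, as they stood well above background on every array of some group, so all 10 genes were among the 16445 genes tested. The tissue was abdominal aorta from uMT mice on the C57BL/6 strain, which lack mature B cells. All 3 groups carry that genotype, so no comparison here includes an aorta from a mouse with B cells. The uMT_sham group had physiological saline applied around the aorta. In the uMT_Ca group the saline was replaced by 0.5 M CaCl2, a way of inducing abdominal aortic aneurysm. The uMT_Ca+IgG group had CaCl2 and also mouse polyclonal IgG injected into the peritoneum, and is also called the IgG group. Tissue was taken 7 days after CaCl2, while neither the day for the sham mice nor the age and sex of the animals is given in the sources used. Each group had 3 arrays. Whether replicates are separate animals is not stated in the labels. The p-values therefore reflect only the spread among these samples, which may be technical.

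Mineral grows in a vessel wall when phosphate is plentiful and pyrophosphate, its small natural inhibitor, is scarce. Abcc6 and Ank move ATP or pyrophosphate out of cells, Enpp1 splits outside ATP into AMP and pyrophosphate, and Nt5e (CD73) turns the AMP into adenosine. Alpl, the tissue-nonspecific alkaline phosphatase, breaks pyrophosphate down, and Phospho1 frees phosphate inside matrix vesicles. Slc20a1 and Slc20a2, known as PiT-1 and PiT-2, bring phosphate into cells. Mgp, matrix Gla protein, is a vitamin K-dependent inhibitor of arterial calcification made in bulk by vascular smooth muscle. Tnfrsf11b encodes osteoprotegerin, a secreted decoy receptor for the osteoclast factor RANKL and for TRAIL.

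Levels are given as log2 of the processed signal minus the log2 of the 75th percentile of the same array, so a level of 0 is a probe at that percentile and a difference of 1 is 2-fold. Levels of different probes are not compared. Where levels are summed over markers, the sum mostly follows its brightest probes. The 75th percentile itself was 267 to 302 in signal on the sham arrays, 381 to 496 on the uMT_Ca arrays and 270 to 455 on the uMT_Ca+IgG arrays. The share of probes well above background ranged from 54.9% to 59.9% between arrays, and 0 spots were saturated. Replicate 3 of uMT_Ca+IgG stood apart from the other 8 arrays, at -74.5 on the second principal component where the others lay between 0.6 and 15.9. Sham replicate 3 was on a slide of its own with its own scan, and the other 8 arrays shared 1 slide in 2 rows. Row 1 of the slides held sham replicate 3, all uMT_Ca arrays and uMT_Ca+IgG replicate 1, and row 2 held the other 4 arrays. No uMT_Ca array shared both slide and row with a sham array. Between these groups, CaCl2 therefore cannot be told apart from the place on the slides. Replicates 2 and 3 of uMT_Ca+IgG shared slide and row with sham replicates 1 and 2. With 3 arrays to a group, precision is limited by their number. A fit within row 1 holds 1 sham array and 1 uMT_Ca+IgG array, so only its differences are given. Counts over alternative settings include these fits.

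In CaCl2-treated aortas the osteoprotegerin, Ank and Slc20a1 genes were higher than in sham aortas and Slc20a2 was lower. limma, fitted across all genes with Benjamini-Hochberg adjustment at 0.05, called these 4 of the 10 members, 3 higher and 1 lower. In the same comparison 36.5% of all genes were called, 17.4% higher and 19.1% lower, so the share among the members lay near that of all genes. With each array scaled to its median, 5 members were called, 5 higher and 0 lower. Slc20a2 was then lost, and Enpp1 (1.35, adjusted p = 0.0363) and Nt5e (1.12, adjusted p = 0.0356) were added. The arrays of both groups did not overlap for 6 members, 4 higher and 2 lower, against 56.6% of all genes, and 1 of the 2 lower ones, Mgp, turned direction with 3 other scalings. The median difference over the 10 members was 0.42, and over all genes it was -0.08. Between CaCl2 plus IgG and sham, 4 members were called, 3 higher and 1 lower, where 29% of all genes were called, 14.7% higher and 14.2% lower. Arrays did not overlap for 5 members in that comparison, 4 higher and 1 lower, against 44.3% of all genes. The members' median there was 0.43, and that of all genes -0.09. Against CaCl2 alone, 0 members were called with CaCl2 plus IgG. Both comparisons with sham share the sham arrays, and their values stand side by side without being counted as separate evidence.

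**Figure D1:**
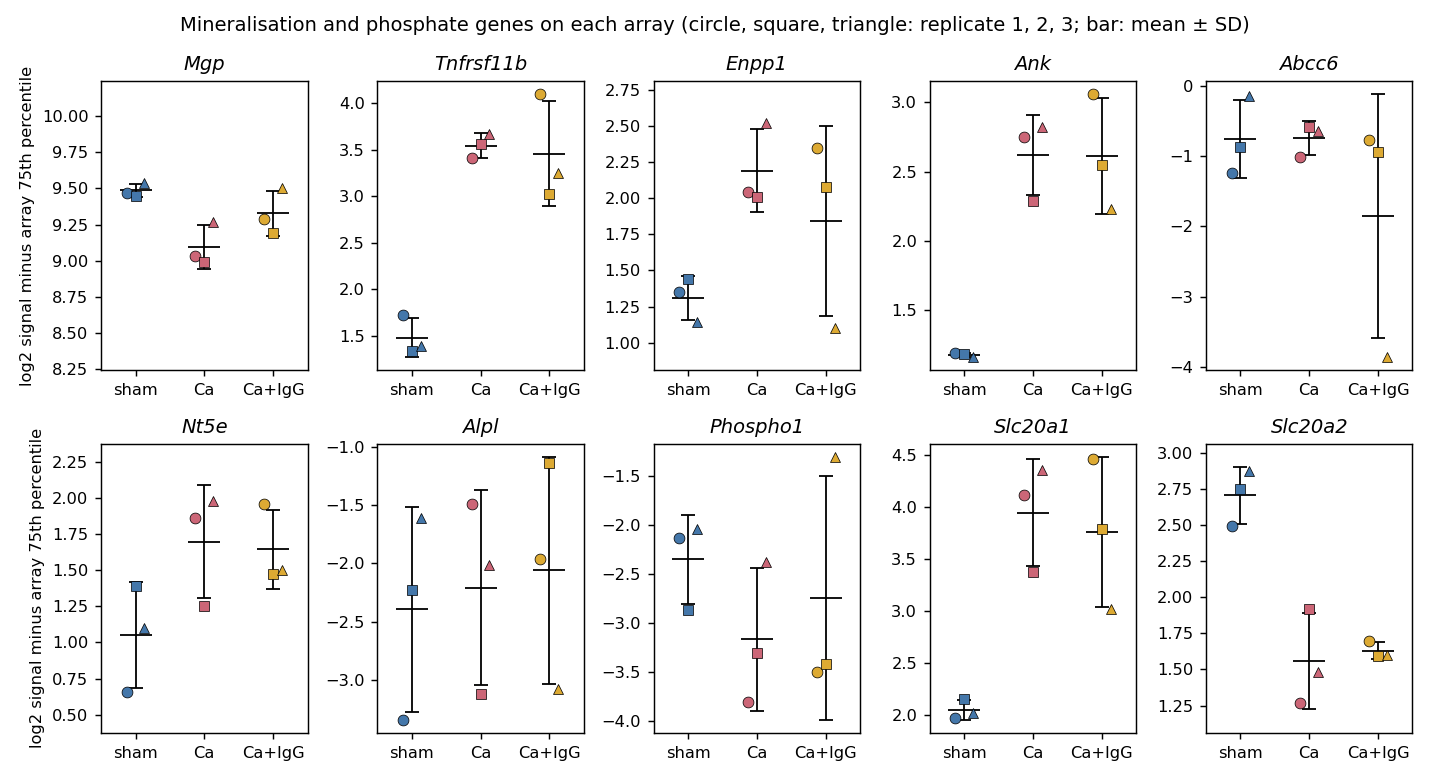
Level of each of the 10 genes on every array, as log2 signal minus the 75th percentile of the array, with a separate vertical scale in each panel. Points are arrays (circle, square and triangle for replicates 1, 2 and 3), the long bar is the group mean and the whiskers are 1 SD. Tnfrsf11b, Ank and Slc20a1 lay higher on all CaCl2-treated arrays than on any sham array, Slc20a2 lay lower, and the triangle of the IgG group lay at -3.86 for Abcc6.

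The levels of cell type markers shifted along with these differences. The summed level of 8 smooth muscle markers, in multiples of the 75th percentile, was 2590 to 2980 in sham, 803 to 1290 with CaCl2 and 882 to 1200 with CaCl2 plus IgG, and 8 of 8 were called lower in both comparisons with sham. The sum of 6 macrophage markers was 26.2 to 73.9, 192 to 216 and 174 to 216, and 5 of 6 were called higher with CaCl2. Fibroblast markers summed to 1350 to 1630, 1780 to 2080 and 1910 to 2250, with 4 of 8 called higher. T cell markers summed to 1.88 to 2.14, 7.21 to 12.8 and 6.51 to 10.3, with 4 of 5 measured called higher. Markers of osteoblasts and chondrocytes summed to 0.498 to 0.643, 5.84 to 12.7 and 3.99 to 11.7. Of these, Col2a1 and Col10a1 were not well above background on any sham array. A marker that passed the filter only through a group where it was high had to differ, so the counts of higher markers are descriptions. Sp7 and Dmp1, which define mature osteoblasts and osteocytes, were not well above background in any group as a whole and were not tested. Neutrophil markers summed to 215 to 278, 137 to 161 and 138 to 345, with 4 of 6 called higher although the sum was lower on the uMT_Ca arrays than in sham. That sum follows its brightest probe, Csf3r, which differed by -0.77 ± 0.34 with CaCl2 without a call (limma, adjusted p = 0.105). Endothelial markers summed to 83.2 to 109 in sham, 67.1 to 78.1 with CaCl2 and 66.9 to 89.5 with IgG, with 1 of 6 called higher and 2 lower. White adipocyte markers summed to 62.8 to 109, 32.4 to 58.8 and 29.1 to 43.8, each over 5 measured markers. Only 2 of 6 skeletal muscle markers were measured, and Myh4, Myh1, Ckm and Mylpf did not pass the filter. Acta1 differed by -2.48 ± 0.31 with CaCl2 and Tnnt3 by 0.13 ± 0.35 (limma, adjusted p = 0.00109 and 0.798). Brown adipocyte markers summed to 3.69 to 5.04, 2.61 to 3.95 and 2.44 to 3.58, and adrenal markers to 0.879 to 1.15, 0.522 to 0.894 and 0.699 to 1.06. For liver 2 of 6 markers were measured, without Alb, Ttr, Serpina1b and Fgb, and they went opposite ways, Ahsg by 1.72 ± 0.35 and Apoa2 by -0.77 ± 0.20, both called. For kidney 2 of 6 were measured, without Umod, Slc12a1, Slc22a6 and Lrp2. Aqp2 was higher by 1.79 ± 0.27 and Nphs1 differed by -1.45 ± 0.52 without a call (adjusted p = 0.0564). Between the CaCl2 groups with and without IgG, 0 genes of any marker list were called. The part of these cell types in the differences of the 10 genes was not tested. In bulk tissue, fewer cells of a type and less RNA per cell cannot be told apart.

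Among the 4 genes that supply pyrophosphate or use the AMP left over, Ank was higher with CaCl2 and the others missed the threshold. Ank, the membrane protein through which cells send out ATP and pyrophosphate, read 1.19, 1.18 and 1.16 on the sham arrays, 2.75, 2.29 and 2.82 with CaCl2, and 3.06, 2.55 and 2.23 in the IgG group. The sham arrays lay within a few hundredths of each other, and all treated arrays lay above them. Ank was higher by 1.44 ± 0.23 (log2, SE) with CaCl2, a 2.72-fold difference (limma, adjusted p = 0.00257), and by 1.44 ± 0.23 with CaCl2 plus IgG (adjusted p = 0.0029). Within row 1 of the slides, with 1 sham array, the difference with CaCl2 was 1.46. Ank was called in each of the 22 alternative settings run for CaCl2 against sham. For CaCl2 plus IgG against sham it was called in each of 23. The Ank probe lies at chr15:27523965-27524024 (mm9, plus strand).

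Enpp1, the enzyme that makes pyrophosphate from ATP, read 1.35, 1.44 and 1.14 in sham, 2.04, 2.01 and 2.52 with CaCl2, and 2.35, 2.08 and 1.10 in the IgG group. The sham and uMT_Ca arrays did not overlap, while uMT_Ca+IgG replicate 3 lay below every sham array. The difference with CaCl2 was 0.88 ± 0.31 (log2, SE), or 1.84-fold, and missed the threshold (limma, adjusted p = 0.0536). It was called in 9 of 22 alternatives, among them the fit without uMT_Ca+IgG replicate 3 (adjusted p = 0.00621) and the fit without uMT_Ca+IgG replicate 1 (adjusted p = 0.0402), which change the shared spread and not the difference. Over all alternatives its adjusted p ran from 0.00621 to 0.223. The difference of CaCl2 plus IgG from sham was 0.53 ± 0.31 (adjusted p = 0.22), and without replicate 3 it was 0.90 (adjusted p = 0.0103).

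A second Enpp1 probe gave a separate reading of the same gene. It stood at -2.36, -2.58 and -2.51 in sham, -1.57, -1.68 and -1.13 with CaCl2, and -1.15, -1.26 and -2.24 in the IgG group. It was higher by 1.02 ± 0.29 with CaCl2 (limma over 32168 kept probes, adjusted p = 0.0316) and differed by 0.93 ± 0.29 with CaCl2 plus IgG, which missed the threshold (adjusted p = 0.0538). Replicate 3 of the IgG group was again the lowest treated array. The first Enpp1 probe lies at chr10:24358048-24358107 (mm9, minus strand).

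Nt5e, which turns AMP into adenosine and phosphate, read 0.66, 1.39 and 1.10 in sham, 1.86, 1.25 and 1.98 with CaCl2, and 1.96, 1.47 and 1.50 in the IgG group. uMT_Ca replicate 2 lay inside the sham range, and the IgG arrays lay above all sham arrays. Nt5e differed by 0.65 ± 0.26 (log2, SE) with CaCl2 and was not called (limma, adjusted p = 0.0838). Without uMT_Ca replicate 2 the difference was 0.87 (adjusted p = 0.0377), and over 22 alternatives it was called in 3. In the IgG group it differed from sham by 0.60 ± 0.26 (adjusted p = 0.122). Its probe lies at chr9:88266616-88266675 (mm9, plus strand).

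Abcc6, a transporter known mainly from the liver whose loss causes ectopic mineralisation, read -1.24, -0.87 and -0.15 in sham, -1.02, -0.58 and -0.64 with CaCl2, and -0.77, -0.94 and -3.86 in the IgG group. On 8 of the 9 arrays the level lay between -1.24 and -0.15, and uMT_Ca+IgG replicate 3 lay far below. The difference with CaCl2 was 0.01 ± 0.74 (SE), with a 95% interval from -1.69 to 1.70 that leaves room for more than a 2-fold change either way. The difference of CaCl2 plus IgG from sham was -1.10 ± 0.74 (limma, adjusted p = 0.287), and leaving out 1 array at a time it ran from -1.65 to -0.10, the last without uMT_Ca+IgG replicate 3. A second Abcc6 probe was not well above background on any array and was left out. The kept probe lies at chr7:53231864-53231923 (mm9, minus strand).

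The enzymes on the mineral-promoting side showed no called change and a wide spread. Alpl, which removes pyrophosphate, read -3.34, -2.23 and -1.61 in sham, -1.49, -3.12 and -2.01 with CaCl2, and -1.96, -1.14 and -3.08 in the IgG group. The 3 groups covered the same range. The difference with CaCl2 was 0.19 ± 0.63 (log2, SE; limma, adjusted p = 0.834), with a 95% interval from -1.25 to 1.63. Its probe lies at chr4:137297658-137297716 (mm9, minus strand).

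Phospho1, the phosphatase of matrix vesicles, read -2.13, -2.87 and -2.04 in sham, -3.81, -3.31 and -2.37 with CaCl2, and -3.50, -3.42 and -1.30 in the IgG group. uMT_Ca+IgG replicate 3 was the highest of all arrays, and uMT_Ca replicate 3 lay inside the sham range. Phospho1 differed by -0.82 ± 0.61 (log2, SE) with CaCl2 (limma, adjusted p = 0.32, 95% interval from -2.22 to 0.59). Its probe lies at chr11:95692092-95692151 (mm9, plus strand). Both genes were well above background on all 9 arrays, and their intervals do not show that either stayed the same.

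**Figure D2:**
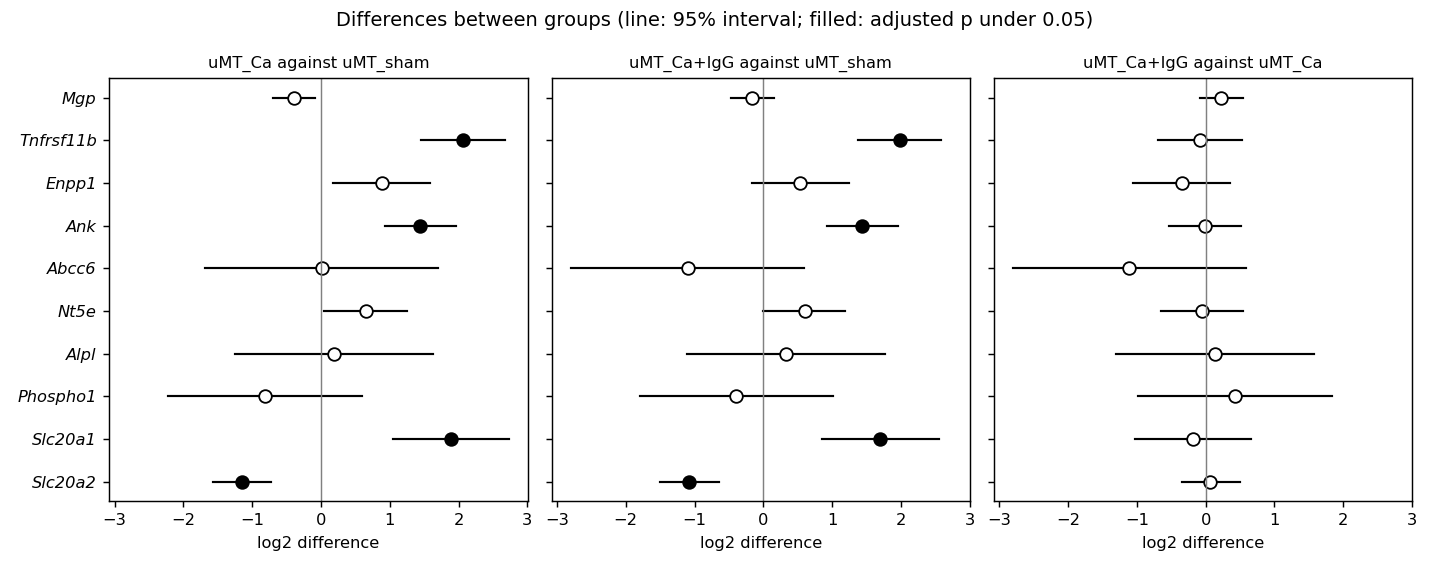
Log2 difference of each gene in the 3 comparisons, with lines for the 95% intervals and filled circles for an adjusted p under 0.05. Ank, Tnfrsf11b, Slc20a1 and Slc20a2 are filled in both comparisons with sham, no gene is filled for IgG against CaCl2 alone, and Abcc6, Alpl and Phospho1 have the longest intervals.

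Both sodium-dependent phosphate importers passed the test, in opposite directions. Slc20a1 (PiT-1) read 1.98, 2.16 and 2.02 in sham, 4.11, 3.37 and 4.35 with CaCl2, and 4.46, 3.79 and 3.02 in the IgG group. All treated arrays lay above all sham arrays. Slc20a1 was higher by 1.89 ± 0.37 (log2, SE) with CaCl2, a 3.70-fold difference (limma, adjusted p = 0.00613), and by 1.70 ± 0.37 with CaCl2 plus IgG (adjusted p = 0.0106). Within row 1 of the slides it was higher by 1.92 with CaCl2, against 1 sham array. For CaCl2 plus IgG the difference was 2.44 within row 1, with 1 array against 1. Within row 2 it was 1.34 and missed the threshold (adjusted p = 0.0906).

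Slc20a2 (PiT-2) read 2.49, 2.75 and 2.87 in sham, 1.27, 1.92 and 1.48 with CaCl2, and 1.70, 1.59 and 1.60 in the IgG group. All treated arrays lay below all sham arrays. Slc20a2 fell by 1.15 on the log2 scale with CaCl2 (SE 0.19), a 2.22-fold decrease (limma, adjusted p = 0.00284), and by 1.08 with CaCl2 plus IgG (SE 0.19, adjusted p = 0.00405). The call was lost when each array was scaled to its median, where the differences were -0.68 (adjusted p = 0.0975) and -0.84 (adjusted p = 0.066). Within row 1, with 1 sham array, the difference with CaCl2 was -1.32. With CaCl2 plus IgG it was -1.18 in row 1, with 1 array against 1. In row 2 it was -1.03 and missed the threshold (adjusted p = 0.0578). Its second probe read 0.01, 0.14 and -0.48 in sham, -1.31, -0.80 and -1.32 with CaCl2, and -1.07, -1.07 and -1.34 with IgG, a difference of -1.03 ± 0.22 with CaCl2 (adjusted p = 0.0114) and -1.05 ± 0.22 with IgG (adjusted p = 0.0132).

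The second Slc20a1 probe is named in the files for another transcript variant, and it was dim. It read -4.52, -4.36 and -5.10 in sham, not well above background on any sham array, then -3.84, -3.95 and -3.28 with CaCl2 and -2.66, -2.98 and -3.82 in the IgG group. A level below background is only a bound, so the brighter group is set against a floor, which on each array is the larger of this probe's own signal and the dimmest signal that counted as well above background. On that basis this probe was at least 1.52-fold higher with CaCl2 and at least 2.20-fold higher with CaCl2 plus IgG. Its fitted differences, which use the sham readings below background, were 0.97 ± 0.34 (limma, adjusted p = 0.0575, not called) and 1.51 ± 0.34 (adjusted p = 0.0167). The probe was kept only through the treated groups and had to be higher, so both values are descriptions. The first 30 of the 60 bases of the 4 probes are shown because the readings of the paired transporters went opposite ways.
Slc20a1 probe 1, chr2:129037286-129037345: ggacagccttccatgttcatctgtctacct
Slc20a1 probe 2, chr2:129029990-129030049: tctcctagaaggtggctggcctgcatccat
Slc20a2 probe 1, chr8:23679961-23680020: cccgaaaccatggaaatgctgctaatattt
Slc20a2 probe 2, chr8:23679094-23679153: tggtgcggttacttacagtagatgtgtatt
Positions are mm9, plus strand. The longest run of identical bases between any full Slc20a1 probe and any full Slc20a2 probe was 7 of 60.

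**Figure D3:**
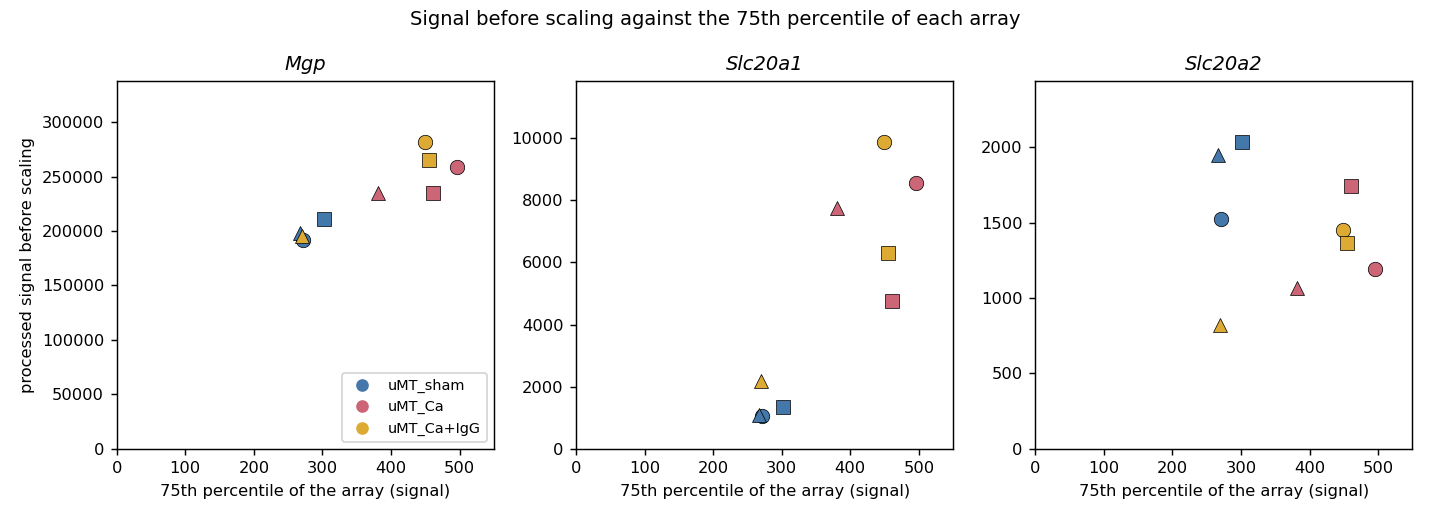
Processed signal of Mgp, Slc20a1 and Slc20a2 on each array before scaling, on linear axes from 0, against the 75th percentile of the same array. Colours are groups and shapes are replicates 1, 2 and 3 (circle, square, triangle). Mgp runs upward with the percentile, Slc20a1 is at 2188 or more on treated arrays and at 1349 or less on sham arrays, and for Slc20a2 1 uMT_Ca array, at 1741, lies inside the sham range while the IgG arrays lie below it.

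The signals before scaling show how far each transporter result leans on the scaling. The Slc20a1 signal was 1069, 1349 and 1080 in sham, 8544, 4770 and 7746 with CaCl2, and 9863, 6306 and 2188 in the IgG group, so the groups were apart before any scaling. The Slc20a2 signal was 1525, 2032 and 1951 in sham, 1194, 1741 and 1063 with CaCl2, and 1453, 1365 and 818.5 in the IgG group. Here uMT_Ca replicate 2 lay inside the sham range before scaling, and all IgG arrays lay below it.

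Mgp was bright on every array, and the direction of its difference depended on the scaling. On the scale of the 75th percentile it read 9.47, 9.45 and 9.54 in sham, 9.03, 8.99 and 9.27 with CaCl2, and 9.29, 9.19 and 9.50 in the IgG group. The uMT_Ca arrays lay below all sham arrays, and the IgG arrays overlapped with both. The difference with CaCl2 was -0.39 ± 0.14 (log2, SE), which missed the threshold (limma, adjusted p = 0.0537), and was called without uMT_Ca+IgG replicate 3 (adjusted p = 0.0351). It was 0.08 with median scaling (adjusted p = 0.807), 0.25 with quantile normalization (adjusted p = 0.0844) and 0.17 in the deposited series table (adjusted p = 0.24). For CaCl2 plus IgG it was -0.16 ± 0.14 (adjusted p = 0.396), and with quantile normalization 0.34 (adjusted p = 0.0379). The signal before scaling was 192100, 210800 and 198100 in sham, 259000, 234700 and 235100 with CaCl2, and 281400, 264800 and 195100 in the IgG group, so it was higher with CaCl2 before the arrays were scaled. No direction is given for Mgp on this basis. Its probe lies at chr6:136821125-136821184 (mm9, minus strand).

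**Figure D4:**
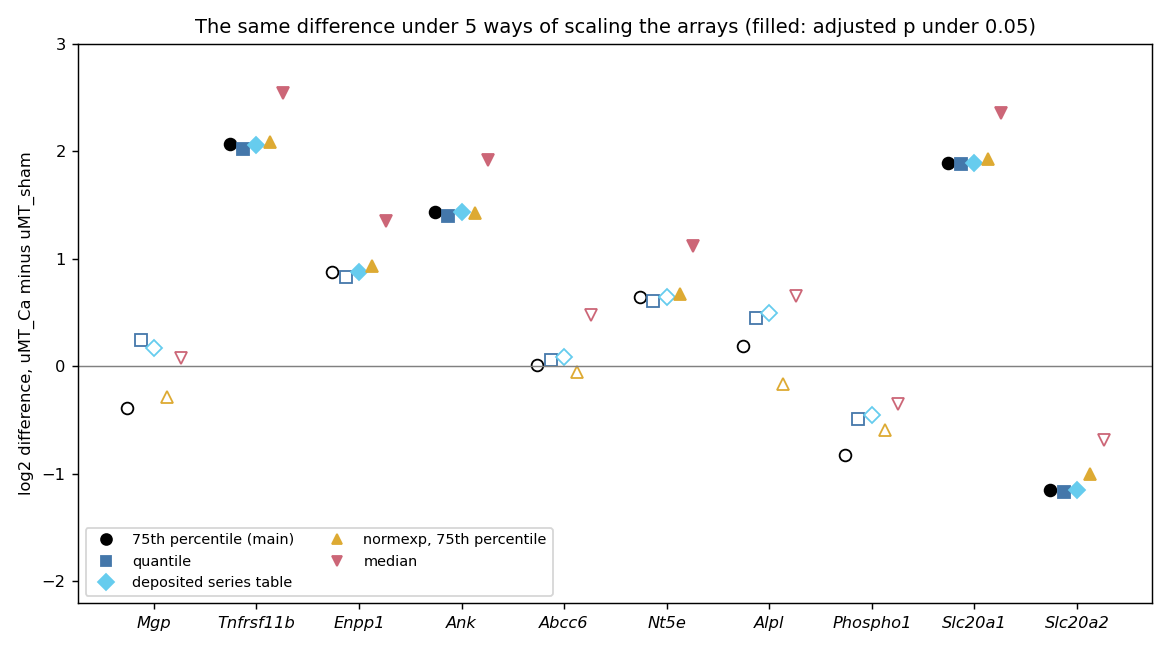
Log2 difference of each gene between uMT_Ca and uMT_sham under 5 ways of scaling the arrays, with filled symbols for an adjusted p under 0.05. Tnfrsf11b, Ank and Slc20a1 are filled under all 5, Slc20a2 is open with the median, and Mgp lies below 0 with the 75th percentile and above 0 with the quantile, series table and median versions.

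Across all genes, the choice of the median in place of the 75th percentile moved the median difference with CaCl2 from -0.08 to 0.39, and the share of called genes that were higher from 47.7% to 77.2%. Without the filter on dim probes that share was 32.8%. For CaCl2 plus IgG against sham the share was 50.9%, and 71.7% with median scaling. Relative to the shift of all genes, Tnfrsf11b, Ank and Slc20a1 kept their call under each scaling.

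Tnfrsf11b, the osteoprotegerin gene, had the largest fitted difference of the 10 members with CaCl2. It read 1.72, 1.33 and 1.39 in sham, 3.41, 3.56 and 3.67 with CaCl2, and 4.10, 3.03 and 3.25 in the IgG group. All treated arrays lay above all sham arrays. Tnfrsf11b was higher by 2.07 ± 0.27 (log2, SE) with CaCl2, or 4.19-fold (limma, adjusted p = 0.00121), and by 1.98 ± 0.27 with CaCl2 plus IgG (adjusted p = 0.0015). Within row 1 of the slides it was higher by 2.15 with CaCl2, against 1 sham array. With CaCl2 plus IgG it was higher by 2.71 in row 1, with 1 array against 1. In row 2 it was higher by 1.62 (adjusted p = 0.0331). It was called in 22 of 22 and 23 of 23 alternatives, the row 1 fits among them. Its probe lies at chr15:54082760-54082819 (mm9, minus strand).

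Osteoprotegerin binds RANKL and TRAIL, and both ligand genes were measured. Tnfsf11, which encodes RANKL, read -5.92, -6.45 and -6.45 in sham, not well above background there, and -1.68, -2.76 and -1.52 with CaCl2 and -2.10, -2.27 and -1.58 in the IgG group. It was at least 4.95-fold higher in each treated group. Tnfsf11 passed the filter only through those groups and had to be higher, so its call is a description. Tnfsf10, the TRAIL gene, read -0.24, -0.72 and -1.62 in sham and -0.98, -0.31 and 0.27 with CaCl2, and differed by 0.52 ± 0.41 without a call (adjusted p = 0.345). Tnfrsf11a, the signalling receptor RANK, read 1.72, 2.11 and 2.33 in sham and 1.32, 1.78 and 1.74 with CaCl2, a difference of -0.43 ± 0.21 that was not called (adjusted p = 0.134). Of the 6 measured genes on the list of osteoprotegerin ligands and receptors, 2 were called higher and 1 lower, beside 17.4% and 19.1% of all genes. The others called were Sdc1, a syndecan, higher by 1.11 ± 0.23, and Tnfrsf10b, a TRAIL receptor, at -0.52 ± 0.13.

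Injected IgG was not followed by a detectable change in any of the 10 genes. limma called 0 of 10 members and 0 of 16445 genes between uMT_Ca+IgG and uMT_Ca, 0% of those tested, and 241 genes (1.47%) had a p under 0.05 before adjustment. No member had arrays that did not overlap between these groups, against 5.02% of all genes. The median difference of the members was -0.03, and over all genes it was -0.02. The 95% interval was -0.53 to 0.51 for Ank, -0.69 to 0.53 for Tnfrsf11b, -0.35 to 0.50 for Slc20a2 and -1.03 to 0.66 for Slc20a1. For Enpp1 it was -1.05 to 0.36, for Mgp -0.08 to 0.54 and for Nt5e -0.65 to 0.55. With the scaling used for these fits, the intervals exclude a 2-fold change among these samples for Ank, Tnfrsf11b, Slc20a2, Mgp and Nt5e. They do not do so for Slc20a1 or Enpp1, nor for Alpl (-1.30 to 1.58), Phospho1 (-0.98 to 1.83) and Abcc6 (-2.80 to 0.59). With median scaling the differences were -0.24 ± 0.36 (SE) for Ank, -0.32 ± 0.36 for Tnfrsf11b and -0.29 ± 0.36 for Nt5e. For Slc20a2 and Mgp they were -0.16 ± 0.29 and 0 ± 0.24. Intervals for median scaling are not given, so the exclusion is not extended to that scaling. The array of the IgG group that stood apart was its lowest for Enpp1, Abcc6, Alpl, Ank and Slc20a1, and its highest for Mgp and Phospho1.

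The promoters of Ank and Slc20a1 are shown because these 2 members ran closest together over the 9 arrays, with r = 0.99, a description over arrays that share the contrast between sham and CaCl2. RefSeq's table for GRCm38.p6 held promoters for 6 of the 10 members, namely Enpp1, Ank, Nt5e, Alpl, Phospho1 and Slc20a1. The 250 bases before the start are printed 5′ to 3′, with matches to 6 searched motifs in capitals.
Ank, chr15:27466427-27466676, plus strand: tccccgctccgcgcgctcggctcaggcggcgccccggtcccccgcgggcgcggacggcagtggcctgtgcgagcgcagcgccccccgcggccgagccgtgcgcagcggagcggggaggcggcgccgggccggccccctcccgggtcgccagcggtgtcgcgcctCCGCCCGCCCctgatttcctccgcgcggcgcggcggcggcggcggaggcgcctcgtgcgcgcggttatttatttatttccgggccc
Slc20a1, first of 2 starts, chr2:129198523-129198772, plus strand: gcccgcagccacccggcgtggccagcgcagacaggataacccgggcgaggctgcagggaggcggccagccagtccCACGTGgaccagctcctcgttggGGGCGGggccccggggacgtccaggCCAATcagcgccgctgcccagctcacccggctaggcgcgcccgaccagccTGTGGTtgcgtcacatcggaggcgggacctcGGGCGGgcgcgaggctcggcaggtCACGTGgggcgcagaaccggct
The motifs were searched on both strands, and their shares are of 32851 promoters of the same length. The E-box CACGTG was found in 6.02% of them, the RUNX core TGTGGT in 14% and the AP-1 site TGANTCA in 6.75%. The box CCAAT was found in 33.8% of them, the GC box GGGCGG in 32.7% and the TATA motif TATAAA in 12.4%. The Ank promoter held 2 GC boxes that overlap each other, from 86 and from 82 bases before the start. The Slc20a1 promoter held 2 E-boxes from 175 and 22 bases before the start, 1 RUNX core at 77, 1 CCAAT at 127 and 2 GC boxes at 152 and 46, none of which overlap. The AP-1 and TATA motifs had no match in either window. G and C made up 81.2% of the Ank window and 75.2% of the Slc20a1 window. These matches describe letters and show no binding.

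Around the 10 members, 8 lists of related genes held 101 genes, of which 88 were measured. With CaCl2 against sham 45 of the 88 were called, 29 higher and 16 lower, beside 36.5% of all genes, and their median difference was 0.07. The counts of each list below are to be read beside 17.4% of all genes called higher and 19.1% lower. With median scaling 28.7% of all genes were called. With CaCl2 plus IgG against sham 48 were called, 31 higher and 17 lower, beside 29% of all genes. With CaCl2, 12 of the 29 higher calls were of genes not well above background on all sham arrays, 8 of them on no sham array. These passed the filter through the treated groups and had to be higher. Entpd8 and Adora1, 2 of the 16 lower calls, passed it only through sham and had to be lower. The counts are therefore descriptions. Between the CaCl2 groups with and without IgG limma called 0, and the median was -0.10. All 29 higher calls kept their call with median scaling, with quantile normalization and in the deposited table. Of the 16 lower calls 1 kept it with median scaling, although all 16 stayed below 0 under each of the 4 other scalings. With normexp background correction 23 of the 29 higher calls were kept. Without uMT_Ca+IgG replicate 3, 49 genes were called with CaCl2 against sham and 47 in the IgG group against sham.

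Genes that supply and clear extracellular nucleotides had 5 called higher and 4 lower of 17 measured and a median of 0.25, and with median scaling 6 higher and 0 lower. Enpp2, which encodes autotaxin, a relative of Enpp1 that makes lysophosphatidic acid and little pyrophosphate, read 1.09, 0.71 and 0.36 in sham, 3.02, 3.38 and 4.39 with CaCl2 and 3.24, 3.30 and 3.44 with IgG, higher by 2.88 ± 0.34 with CaCl2 (adjusted p = 0.000893). Panx1, a channel that lets ATP out of cells, was higher by 2.04 ± 0.25. The ATP receptors P2rx4 and P2rx7 were higher by 1.54 ± 0.16 and 1.49 ± 0.15. Entpd1 (CD39), which strips ATP to AMP and so competes with Enpp1 for its substrate, read 1.66, 1.88 and 1.73 in sham and 0.55, 0.88 and 0.62 with CaCl2, a fall of 1.08 (SE 0.14, adjusted p = 0.0013). With median scaling its difference was -0.61 and not called (adjusted p = 0.0943). Entpd8 differed by -1.44 ± 0.29, with 1 of 3 uMT_Ca arrays well above background. It passed the filter only through sham and had to be lower, so its call is a description. Enpp3, another relative of Enpp1, differed by 0.56 ± 0.21 and was not called (adjusted p = 0.0611). Its relatives Enpp4 and Enpp5 differed by -0.51 ± 0.12 and -0.80 ± 0.25 (adjusted p = 0.0129 and 0.0372), and with median scaling by -0.04 and -0.32, not called (adjusted p = 0.92 and 0.501).

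Downstream of Nt5e, 3 of 9 adenosine-handling genes were called higher and 2 lower, with a median of -0.02 that became 0.45 with median scaling. Adora2b, the low-affinity adenosine receptor, read -2.59, -2.82 and -2.54 in sham, -0.16, -0.18 and -0.13 with CaCl2 and -0.43, 0.26 and -0.51 with IgG, higher by 2.49 ± 0.21 (limma, adjusted p = 0.000335). Adora3 was higher by 1.64 ± 0.40 and Dpp4, which binds adenosine deaminase in humans, by 2.38 ± 0.43. Both were well above background on 2 of 3 sham arrays and passed the filter through the treated groups, so these 2 calls are descriptions. Adora1 differed by -1.97 ± 0.66 with 1 of 3 uMT_Ca arrays well above background. As it passed the filter only through sham and had to be lower, its call is a description. Adk, the kinase that clears adenosine inside cells, differed by -0.78 ± 0.20. The lower calls of Adora1 and Adk were lost with median scaling (-1.49, adjusted p = 0.0973, and -0.31, adjusted p = 0.485). Adora2a differed by -0.02 ± 0.31 and Ada by -0.43 ± 0.26, neither called.

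Among 12 measured genes of phosphate transport and its hormones, 5 were called higher and 3 lower, with a median of 0.31. Xpr1, which exports phosphate from cells, read 3.94, 3.83 and 3.77 in sham and 2.72, 3.18 and 2.92 with CaCl2, a fall of 0.90 (SE 0.16, limma, adjusted p = 0.00386), and was not called with median scaling (-0.43, adjusted p = 0.205). The calcium-sensing receptor gene Casr was not well above background in sham, at -6.49, -6.36 and -6.33. It read -0.55, -1.75 and -0.47 with CaCl2, at least 10.3-fold higher. Vdr, the vitamin D receptor, was at least 6.72-fold higher and Galnt3, which glycosylates FGF23, at least 1.53-fold, both also not well above background in sham. These 3 of the 5 higher calls passed the filter only through the treated groups and had to be higher, so they are descriptions. The probe named for Fgf23, the phosphate-wasting hormone, read 7.30, 7.18 and 7.53 in sham. With CaCl2 it read 6.21, 6.27 and 5.06, and with IgG 6.30, 6.12 and 7.47. It was lower by 1.49 with CaCl2 (SE 0.42, adjusted p = 0.0253). It was the 1 lower call kept with median scaling (-1.02, adjusted p = 0.0415). With CaCl2 plus IgG against sham Fgf23 differed by -0.71 ± 0.42 and was not called (adjusted p = 0.229), and the arrays overlapped. These readings rest on 1 kept probe, with no second probe beside it. Kl, the FGF23 co-receptor Klotho, and the phosphate transporters Slc34a1, Slc34a2 and Slc34a3 did not pass the filter on dim probes.

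**Figure D5:**
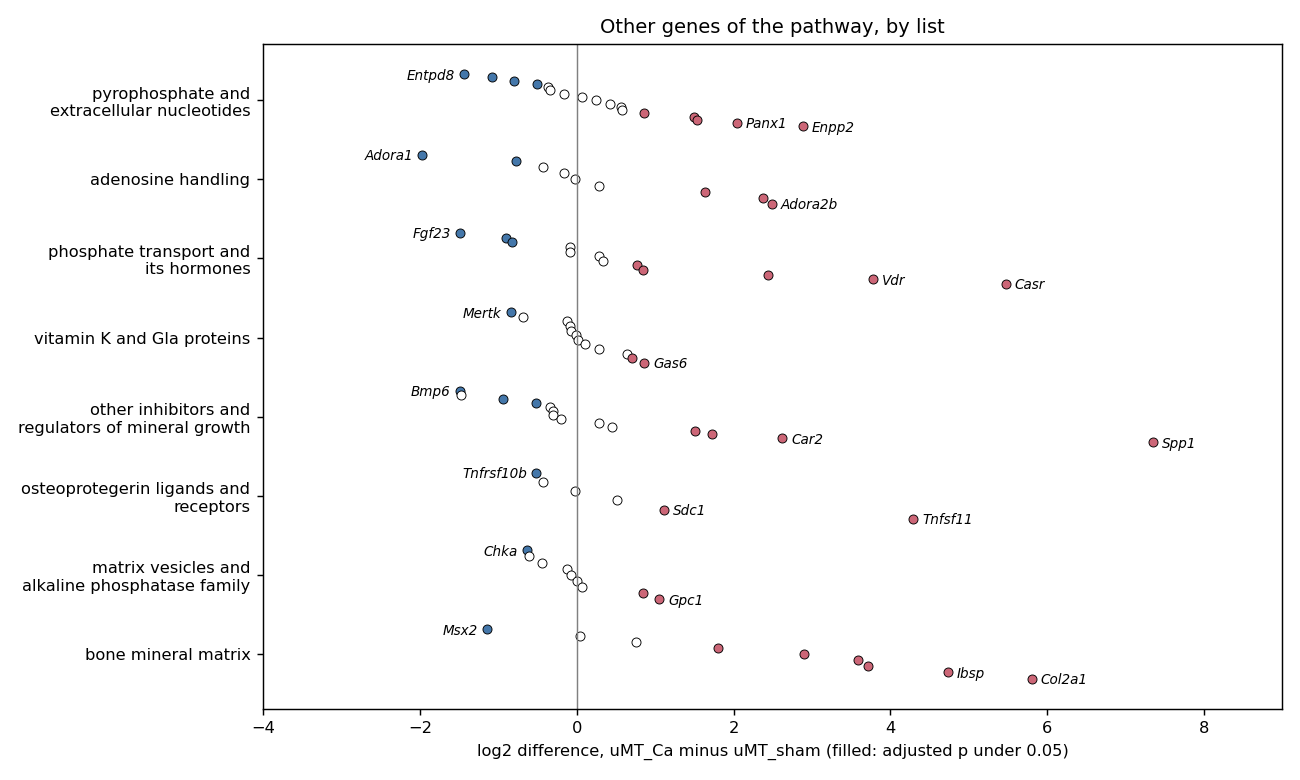
Log2 difference between uMT_Ca and uMT_sham for each measured gene of the 8 related lists, 1 point per gene, filled where the adjusted p is under 0.05 (red higher, blue lower). Points of genes below background in sham, such as Casr, Tnfsf11 and Col2a1, mark fitted differences and not bounds. Spp1 at 7.35 is the farthest point to the right, and Adora1 at -1.97 the farthest to the left.

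Around Mgp, of 12 measured genes that activate, resemble or receive Gla proteins, 2 were called higher and 1 lower, with a median of 0.00. Ggcx, the carboxylase that activates Mgp, differed by 0.02 ± 0.22, and Vkorc1, which recycles its vitamin K, by -0.07 ± 0.16 (limma, adjusted p = 0.962 and 0.764). Gas6 and Pros1, Gla proteins that bind TAM receptors, were higher by 0.86 ± 0.15 and 0.71 ± 0.18, and the receptor Mertk differed by -0.84 ± 0.21. Mertk was not called with median scaling (-0.37, adjusted p = 0.263).

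Other inhibitors and regulators of mineral growth had 4 of 14 called higher and 3 lower with a median of -0.25, and with median scaling 4 higher and 0 lower with a median of 0.22. Spp1, osteopontin, read -1.04, -0.28 and -4.21 in sham, 5.49, 4.80 and 6.25 with CaCl2 and 5.86, 5.25 and 5.50 with IgG, and it was well above background on 2 of 3 sham arrays. Ahsg, the fetuin-A gene, read -1.43, -0.84 and -0.69 in sham and 1.04, 0.95 and 0.21 with CaCl2, higher by 1.72 ± 0.35 (limma, adjusted p = 0.00748). Car2, a carbonic anhydrase not well above background in sham, was at least 3.37-fold higher, and Grem1, a BMP antagonist, higher by 1.51 ± 0.45. Bmp6 fell by 1.49 (SE 0.29, adjusted p = 0.00598), and was not called with median scaling (-1.02, adjusted p = 0.0598). Bmp2 and Bmp4 differed by 0.28 ± 0.19 and -0.34 ± 0.29, neither called.

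The matrix vesicle list, which surrounds Alpl and Phospho1, had 2 of 9 called higher and 1 lower, with a median of -0.07 that became 0.40 with median scaling. Gpc1 and Anxa2, a glypican and an annexin, were higher by 1.05 ± 0.24 and 0.84 ± 0.17, and Chka, choline kinase, differed by -0.64 ± 0.18 and lost its call with median scaling (-0.17, adjusted p = 0.622). Smpd3 and Anxa5 were not called, at -0.61 ± 0.22 and 0.07 ± 0.18. The 3 other alkaline phosphatase genes on the list, Akp3, Alppl2 and Alpi, did not pass the filter on dim probes. Of 11 genes on the bone mineral matrix list 9 were measured, and 6 were called higher and 1 lower. For 4 of those 6 the sham arrays were not all well above background, so that count is not evidence about the list. Its median was 2.90 in fitted differences and 1.60 with the genes below background in sham at their bounds. Ibsp, bone sialoprotein, read -2.67, -2.23 and -2.36 in sham, 3.07, 1.78 and 2.07 with CaCl2 and 2.40, 0.82 and 2.88 with IgG. Sox9, the cartilage transcription factor, was higher by 3.72 ± 0.43, with 1 of 3 sham arrays well above background, and Acan, the aggrecan gene, by 2.90 ± 0.31. Runx2, the bone transcription factor, was at least 1.23-fold higher, and its fitted difference of 1.80 became -0.10 with normexp background correction. Msx2 differed by -1.14 ± 0.26 and was not called with median scaling (-0.67, adjusted p = 0.169).

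For each member, the 3 genes most like it over the 9 arrays were taken from 14577 candidates by Pearson correlation of log2 levels. All pairs share the same arrays and the same contrast between groups, so high values follow readily and carry no test. Ank ran with Fuca2 (r = 0.995), Col5a2 (r = 0.994) and Lrp1 (r = 0.994). Slc20a1 ran with Fbxo7 (r = 0.990), Steap3 (r = 0.988) and Cx3cl1 (r = 0.987). Slc20a2 ran with Ktn1 (r = 0.993), Asap2 (r = 0.990) and Tgfb1i1 (r = 0.989), and Tnfrsf11b with P2ry10b (r = 0.987), Pappa2 (r = 0.985) and Fam102a (r = 0.983). The nearest genes of Enpp1 were Tmco4, Dpp3 and Ephb1 (r = 0.984, 0.976 and 0.975). Those of Mgp were Trpv6, COX2 and Ttc38 (r = 0.974, 0.969 and 0.968). Nt5e ran with Txn1, Slc35f6 and Dpy19l3 (r = 0.969, 0.961 and 0.951) and Alpl with Nat10, Garre1 and Tmem39a (r = 0.954, 0.934 and 0.925). The nearest genes of Abcc6 were Plaat5, Alg3 and Tcp11 (r = 0.991, 0.989 and 0.986), and those of Phospho1 were Fam83e, Uts2r and Klk1b21 (r = 0.965, 0.964 and 0.963). For both, uMT_Ca+IgG replicate 3 was the array farthest from the others.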

How the data were processed

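Total RNA of abdominal aorta, 9 samples, was measured on 1-colour Agilent arrays, 1 per sample, and grouped by sample title, with 3 arrays per group. The deposited scanner files hold spot intensity on a linear scale, background-subtracted and detrended by Feature Extraction 10.7.1.1 per the file headers (9.5.1.1 per the submitters' processing notes). The deposited series table, also linear intensity with its steps not given in the sources used here, was an alternative. The labels name both an SV Total RNA kit and RNeasy for purification. Columns not mapped to a sample numbered 0.

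From the deposited intensity, log2 of the processed signal minus the log2 of each array's 75th percentile over non-control spots was computed. Outlier spots were left out and spots of a probe averaged. A probe was kept if every array of some group had it well above background, and the brightest kept probe stood for a gene. Symbols came through RefSeq of GRCm38.p6, by accession for 27235 of 55681 probes, by symbol for 3581, by synonym for 565 and by the file's name for 1431. Probe positions are the design's own, in mm9. All 9 arrays entered 1 limma 3.58.1 fit (R 4.3.3, lmFit and eBayes, 6 residual degrees of freedom, no covariate), adjusted by Benjamini-Hochberg over 16445 genes, threshold 0.05. The procedure was tested on simulated data. Replicate numbers did not pair samples across groups, since same-numbered samples correlated between -0.197 and 0.224 in their deviations from group means.

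The members, the 8 pathway lists and the 13 marker lists were chosen with earlier results of these data known. Named genes were the members, a fixed set, up to 4 called genes per pathway list by size whose arrays did not overlap, and the 3 best-correlated genes per member. Other settings changed the scaling, background correction, source table, filter, probe rule, samples in the fit, variance model, blocks and left-out arrays. Fits within rows of the slides were added after the data were seen. The sequence of 1 Enpp1 probe is not reported here.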

Additional observations from a re-analysis of the deposited data

How the results depend on the processing

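Leaving aside the fits within row 1, which hold 1 sham array, Tnfrsf11b and Ank were called in both comparisons with sham under each alternative. Slc20a1 and Slc20a2 lost their calls where the report says so. Within row 2 of the slide 2 members were called for CaCl2 plus IgG against sham, beside 7.81% of all genes, and 4 arrays entered the fit. The replicate block, on numbers that do not pair the samples, called 5, 0 and 4 members for CaCl2 against sham, IgG against CaCl2 and CaCl2 plus IgG against sham, the added one being Mgp (adjusted p = 0.0472).

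Some differences changed sign, none of them called as reported, and the cause was not tested. With CaCl2 against sham, Mgp became 0.08 (median), 0.25 (quantile) and 0.17 (series table). Abcc6 became -0.05 (normexp), -0.84 (row as a block) and -0.59 (within row 1), and Alpl -0.16, -0.25 and -0.60 in the same settings. With CaCl2 plus IgG against sham, Mgp became 0.08, 0.34 and 0.23 (median, quantile, series table), Alpl -0.36 (within row 1) and Phospho1 0.14 (within row 2). With IgG against CaCl2, median scaling gave Alpl -0.09 and Slc20a2 -0.16, quantile normalization Alpl -0.08 and Ank 0.05, and the series table Alpl -0.08 and Ank 0.04. The mean of the kept probes gave Slc20a1 0.18. The row as a block gave Ank 0.21, Nt5e 0.13, Slc20a1 0.15 and Tnfrsf11b 0.20. Within row 1, Ank became 0.44, Enpp1 0.16, Nt5e 0.26, Phospho1 -0.34, Slc20a1 0.52 and Tnfrsf11b 0.56.

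Leaving out 1 array at a time, the CaCl2 against sham difference ran from -0.24 to 0.31 for Abcc6 and from -0.29 to 0.65 for Alpl, and that of CaCl2 plus IgG against sham from -0.14 to 0.84 for Alpl. For IgG against CaCl2 it ran from -0.32 to 0.65 for Alpl, -0.23 to 0.18 for Ank, -0.60 to 0.02 for Enpp1, -0.28 to 0.09 for Nt5e, -0.29 to 0.82 for Phospho1, -0.54 to 0.18 for Slc20a1, -0.07 to 0.25 for Slc20a2 and -0.40 to 0.13 for Tnfrsf11b.

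Over all genes, 5996 were called with CaCl2 against sham, but 3897 with the slide as a block, 3378 with the row as a block, 3911 without sham replicate 3 and 3969 without uMT_Ca replicate 1. For CaCl2 plus IgG against sham 4762 were called, but 2987 with median scaling, 2991 without uMT_Ca+IgG replicate 2 and 1284 within row 2. For IgG against CaCl2, 2 genes were called without uMT_Ca+IgG replicate 1. Of the 10 members, Abcc6, Alpl and Phospho1 had the widest intervals.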
